A study of Mus musculus with 39 samples.

Results

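Bmal1 knockout and control parathyroid glands were compared at ZT16, the time point in the dark phase 16 h after lights on, over all genes. The samples were chosen by their titles, which gave 3 knockout and 5 control samples, 8 of the 39 samples of the series. All mice carried Bmal1 alleles with loxP sites on both sides of exon 8 (strain B6.129S4(Cg)-Arntltm1Weit/J). The knockout mice (PTHcre;Bmal1flox/flox, called KO) also carried the transgene of strain 129;FVB-Tg(PTH-cre)4167Slib/J, which makes Cre recombinase under the human PTH promoter. The controls (called WT) were Bmal1flox/flox littermates without Cre activity, so they were not free of the engineered allele, and no group carried Cre alone. The animals were 11-week-old males, and each sample held the glands of 2 mice. Whole glands were taken, and cells that do not use the PTH promoter are not targeted by this Cre. Because the tissue is bulk, fewer cells of a type and less RNA per cell cannot be told apart.

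The circadian clock is a feedback loop of transcription. BMAL1, encoded by Arntl, pairs with CLOCK or NPAS2 and binds E-box sequences, where it turns on the Period and Cryptochrome genes, whose proteins then block it, and the genes of the REV-ERB repressors Nr1d1 and Nr1d2. REV-ERB and ROR proteins compete for another element and so set the rhythm of Arntl, Npas2, Cry1 and Nfil3. Parathyroid chief cells secrete parathyroid hormone, which raises blood calcium.

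The 8 libraries held 47254021 to 67311366 counts and 17652 to 19845 detected genes. Levels are given as CPM, counts relative to library size, scaled with trimmed mean of M-values factors. Differences are log2 fold changes, KO minus WT, with standard error, from edgeR's quasi-likelihood fit of 12 groups over all 39 samples, and a gene was called at an adjusted p under 0.05 over 18661 genes. Parathyroid markers were present in every library: Pth ranged from 93240 to 227100 CPM and Casr, the calcium-sensing receptor, from 2080 to 3376 CPM.

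Several libraries stood apart. WT replicates 4 and 5 and KO replicate 1 were titled ZT16 but carried the time 20 in a second label, so counts of calls are also given without them. The clock time in their titles was that of the other libraries titled ZT16, not that of the libraries titled ZT20. WT replicate 1 held the highest Pth, 227100 CPM against 93480 to 125800 CPM in the other 4 WT libraries. WT replicates 3 and 4 were rich in lymphoid transcripts: Cd3e, a T-cell receptor subunit, stood at 19.0 and 29.0 CPM there and at 0.175 to 3.97 CPM in the other 6 libraries. The thyroid product Tg ranged from 7.22 to 33670 CPM, with high and low libraries in both groups.

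The targeted gene was lower on average in KO but did not pass the test. Arntl (chromosome 7, 113178471 to 113314126, GRCm38.p6) stood at 7.94, 32.7, 24.1, 27.5 and 14.3 CPM in WT replicates 1 to 5 and at 7.93, 12.3 and 12.0 CPM in KO replicates 1 to 3. WT replicate 1 lay at the level of the lowest KO library, so the groups overlapped. The difference was -0.99 ± 0.28 (edgeR adjusted p = 0.217). Without WT replicate 1 it was -1.20 (edgeR adjusted p = 0.0242), and DESeq2 gave -0.99 over all 8 libraries (adjusted p = 0.0429). At other times the Arntl difference was -0.67 (ZT0), -0.56 (ZT4), -0.02 (ZT8) and -0.32 (ZT20), none called. At ZT12 Arntl was called higher in KO, by 1.76 (edgeR adjusted p = 0.0204), so the sign was not the same at all times. The count covers exons outside the deleted one, so transcripts that lack exon 8 can still be counted.

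Of 18661 genes tested, 34 (0.182%) were called, 25 higher (0.134%) and 9 lower (0.0482%) in KO. At an unadjusted p under 0.05 there were 1457 (7.81%). Most called changes were large: 22 of the 34 were at least 2-fold, and in 33 the KO and WT libraries did not overlap, against 400 (2.14%) of all genes with KO above and 297 (1.59%) with KO below. Genes were called on these same libraries, which favours large and separated changes, so these counts are not further evidence. The median change over all genes was -0.03. Of the 34 called genes, 28 had the same sign at all 5 other times, and 20 were also called at 1 or more of these. The matching shares over all genes are not given here, so these counts describe the called genes only. At the other times the same fit called 166 genes (0.89%, ZT20), 30 (0.161%, ZT12), 11 (0.0589%, ZT8), 14 (0.075%, ZT4) and 12 (0.0643%, ZT0). Without the 3 libraries of second label 20, 15 genes were called, 13 of them among the 34. Single libraries also mattered: 19 genes were called without WT replicate 1, 52 without WT replicate 2, 22 without WT replicate 3, 16 without KO replicate 2 and 4 without KO replicate 3. Those 4, Trim12a, Adra2c, Npas2 and Zcchc12, were among the 34. Just outside the threshold were Prkd3 (edgeR adjusted p = 0.0588), Sox4 (edgeR adjusted p = 0.0600) and Sfxn4 (edgeR adjusted p = 0.0607).

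**Figure D1:**
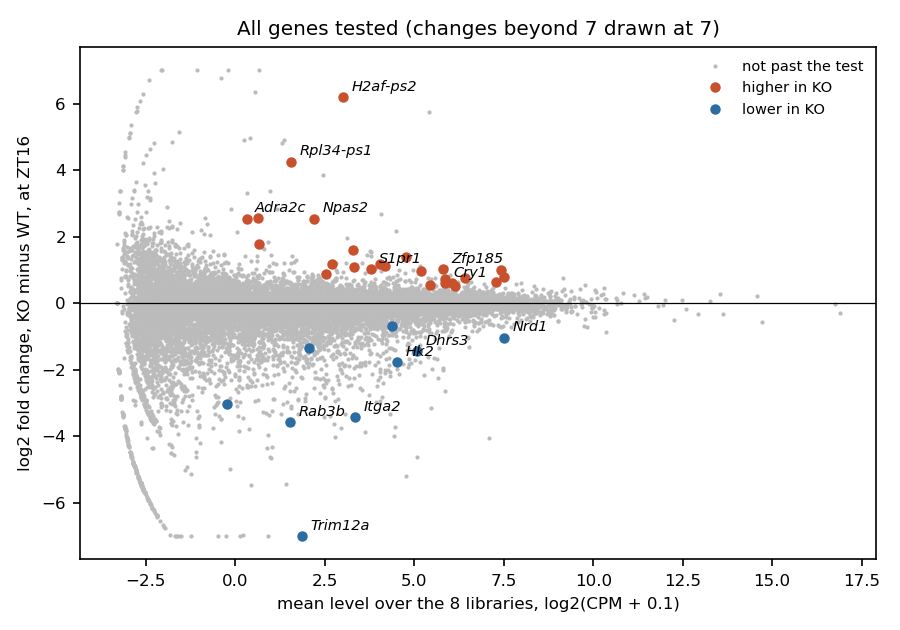
Each point is a gene, with its mean level over the 8 libraries as log2(CPM + 0.1) on the horizontal axis and the log2 fold change, KO minus WT at ZT16, on the vertical axis. The 25 genes called higher are orange and the 9 called lower are blue among the other genes in grey, and Trim12a, beyond the axis, is drawn at its lower end.

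Within the clock loop, 2 of 21 genes tested rose and none fell, and 14 of 21 had a positive change, with a median of 0.13 against -0.03 over all genes. Npas2, the partner of BMAL1 that can take the place of CLOCK, was at 0.598, 1.86, 2.03, 2.52 and 0.915 CPM in WT and at 4.27, 10.6 and 12.8 CPM in KO. Every KO library was above every WT library, and the rise was 2.54 ± 0.39 (edgeR adjusted p = 0.00157). Cry1, a cryptochrome that represses the BMAL1 complex, was at 50.7, 56.8, 45.2, 45.5 and 43.2 CPM in WT and at 64.8, 73.4 and 79.9 CPM in KO. Its groups did not overlap either, and it rose by 0.59 ± 0.12 (edgeR adjusted p = 0.0163). Npas2 was called also without the 3 libraries of second label 20 (edgeR adjusted p = 0.00273), whereas Cry1 kept its size there, 0.58, and lost its call (edgeR adjusted p = 0.150).

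The other members of the loop did not pass the test. Clock, the main partner of BMAL1, had 101.1 to 143 CPM in WT and 117 to 140 CPM in KO, a difference of 0.12 ± 0.10 (edgeR adjusted p = 0.779). Among the Period genes, Per2 had a median of 68.9 CPM in WT and 83.3 CPM in KO and a difference of 0.07 ± 0.25 (edgeR adjusted p = 0.975), a sign that turned when WT replicates 3 and 4 were left out (-0.06). Nr1d1 lay between 3.50 and 6.36 CPM in WT and between 3.78 and 6.77 CPM in KO, a difference of 0.02 ± 0.24 (edgeR adjusted p = 0.991), which was -0.05 without the 3 libraries of second label 20. Nr1d2 was at 171 CPM in WT replicate 1, at 51.4 to 76.9 CPM in the other WT libraries and at 59.0 to 102.4 CPM in KO. Its difference of -0.17 ± 0.27 (edgeR adjusted p = 0.914) became 0.22 without WT replicate 1.

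Tef, a D-box activator, was the remaining loop gene without overlap, at 105.9 to 146.8 CPM in WT and 151.4 to 181.4 CPM in KO, and its change of 0.38 ± 0.14 was not called (edgeR adjusted p = 0.463). Dbp, another D-box activator, was at 24.8, 13.3, 12.9, 12.1 and 14.9 CPM in WT and at 26.0, 15.2 and 29.2 CPM in KO, with overlap and a difference of 0.59 ± 0.25 (edgeR adjusted p = 0.565). Nfil3, a D-box repressor, reached 9.08 CPM in KO replicate 2 and stood at 4.67 and 4.70 CPM in the others, against 3.09 to 5.62 CPM in WT. None of the 15 genes of clock protein turnover passed, with a median of -0.02.

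**Figure D2:**
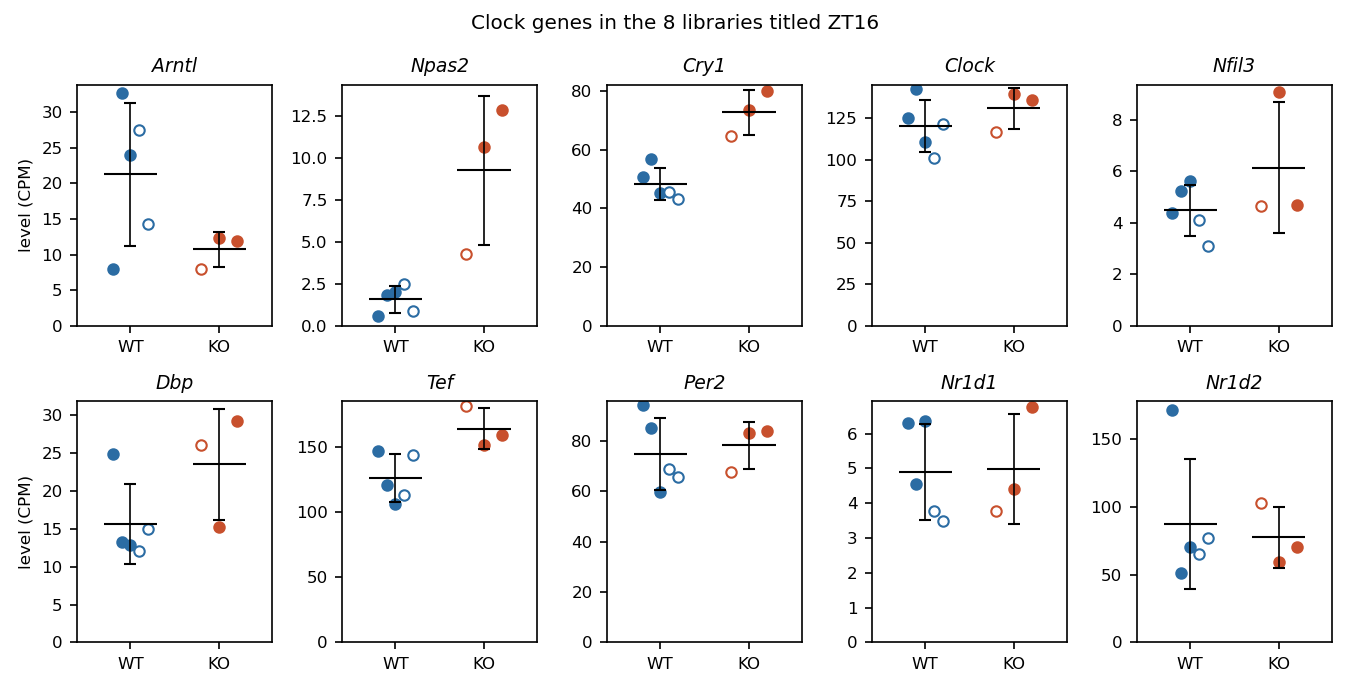
Levels of clock loop genes in CPM in each library at ZT16, WT beside KO, with bars for the mean ± SD (n = 5 WT and 3 KO). Open circles are the 3 libraries whose second label gives 20. Npas2 and Cry1 separate the groups, and Tef does so without a call, while the groups overlap in the other genes shown.

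Whether the effect at ZT16 differed from the mean effect of the other 5 times was tested in the same fit, and 2 of 18661 genes passed (0.0107%), with 1248 (6.69%) at an unadjusted p under 0.05. Cry1 was among them. WT Cry1 lay at 14.7 to 15.7 CPM at ZT8, at 23.3 to 25.5 CPM at ZT12, at 43.2 to 56.8 CPM at ZT16 and at 44.9 to 48.5 CPM at ZT20. KO Cry1 stayed between 57.7 and 89.8 CPM over all 6 times. The Cry1 difference was 2.32 at ZT8 and 1.48 at ZT12 but 0.59 and 0.80 at the following times, and the effect at ZT16 stood -0.95 ± 0.13 from the mean of the others (edgeR adjusted p = 0.000838). With the 3 libraries of second label 20 left out, Cry1 still passed at -0.97 (edgeR adjusted p = 0.0235), and it passed when they were counted as ZT20 (edgeR adjusted p = 0.0327). Leaving out WT replicate 1 added Nr1d2 to the genes that passed, at 1.26 ± 0.22 (edgeR adjusted p = 0.0210).

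**Figure D3:**
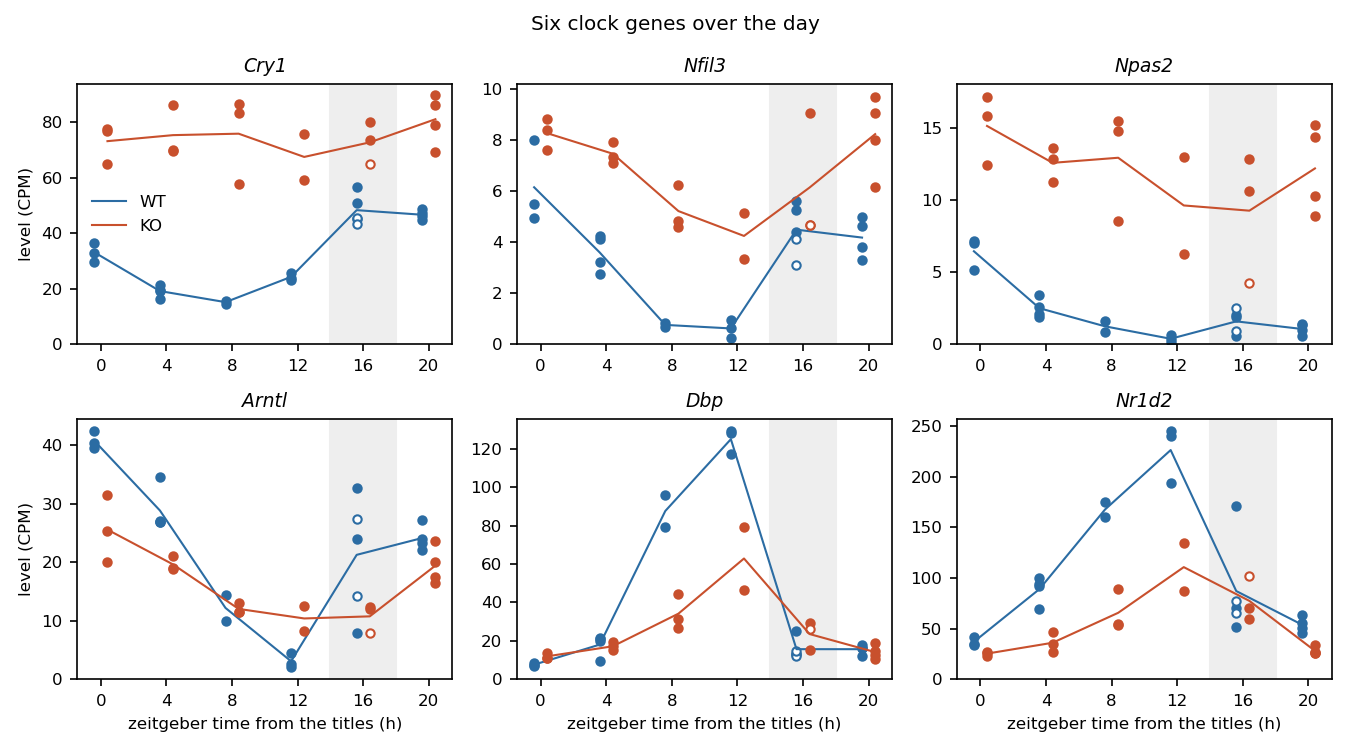
Levels in CPM of clock genes over the 6 times of day (h after lights on), with a point for each library, lines through the group means and a grey band at ZT16. Open circles are the 3 libraries whose second label gives 20. WT Cry1 is at 23.3 to 25.5 CPM at ZT12 and, at 43.2 to 56.8 CPM, nearer to KO at ZT16.

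Promoter sequence was examined for the called genes, since E-boxes are the element that the deleted factor binds. The 250 bases before the start site, from RefSeq on GRCm38.p6, were found for 26 of the 34. The E-box CACGTG, searched on both strands, was in 4 of these (Adra2c, Arrdc4, Cry1 and Wdr86), and in 6.86% of all 27025 genes with a promoter. The variant CACGTT, which reads AACGTG on the other strand, was in 2 of 26 (Cry1 and Nrd1) and 4.50% of all genes. AGGTCA, a half-site that ROR and REV-ERB proteins bind, was in 4 of 26 (Adra2c, Hhatl, Rai14 and Wdr86) and 15.8% of all genes, and the D-box TTATGTAA in 0 of 26 and 0.977%. The windows of 4 called genes are printed 5′ to 3′ on the gene's strand, 3 with an E-box and Npas2 with no match, with every match in capitals; no matches overlapped. Cry1 (chr10:85185055-85185304, minus strand) holds the E-box 60 bases and the variant 79 bases before the start, Adra2c (chr5:35278316-35278565, plus strand) the E-box at 152 and AGGTCA at 51 bases, and Arrdc4 (chr7:68749239-68749488, minus strand) the E-box at 193 bases. The Npas2 window is chr1:39194022-39194271, plus strand; the start it precedes lies inside the span of Npas2 in the gene table, which begins at 39193702, so the sequence before that earlier position was not searched. A match describes letters only, and binding was not measured.
Cry1: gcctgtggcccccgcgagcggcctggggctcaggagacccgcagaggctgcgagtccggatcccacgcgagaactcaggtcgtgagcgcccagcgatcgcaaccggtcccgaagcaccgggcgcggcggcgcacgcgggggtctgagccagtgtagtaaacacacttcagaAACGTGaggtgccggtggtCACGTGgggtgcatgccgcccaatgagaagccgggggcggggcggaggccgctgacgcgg
Adra2c: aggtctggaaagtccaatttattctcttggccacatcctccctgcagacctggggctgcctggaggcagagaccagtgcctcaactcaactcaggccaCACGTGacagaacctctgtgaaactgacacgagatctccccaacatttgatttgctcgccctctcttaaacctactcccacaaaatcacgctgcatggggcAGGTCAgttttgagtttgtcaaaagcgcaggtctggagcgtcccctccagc
Arrdc4: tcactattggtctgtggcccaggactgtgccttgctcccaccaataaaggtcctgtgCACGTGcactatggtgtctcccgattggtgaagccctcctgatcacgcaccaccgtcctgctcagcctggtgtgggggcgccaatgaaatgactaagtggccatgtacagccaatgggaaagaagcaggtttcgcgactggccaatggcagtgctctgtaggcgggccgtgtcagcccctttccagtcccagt
Npas2: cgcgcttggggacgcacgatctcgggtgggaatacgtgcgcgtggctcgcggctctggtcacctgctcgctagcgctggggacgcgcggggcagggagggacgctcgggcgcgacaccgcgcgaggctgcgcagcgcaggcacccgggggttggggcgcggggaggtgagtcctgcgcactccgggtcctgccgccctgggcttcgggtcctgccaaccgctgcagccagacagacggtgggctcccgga

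Receptor genes were among the largest rises. Adra2c, the alpha-2C adrenergic receptor, which couples to an inhibitory G protein, was at 0.512, 0.280, 0.745, 0.191 and 0.300 CPM in WT and at 1.72, 3.56 and 1.82 CPM in KO. All KO libraries were above all WT libraries, and the change was 2.54 ± 0.39 (edgeR adjusted p = 0.00157). It was also called at all 5 other times, with changes of 2.92 to 3.68. The other 8 adrenergic receptor genes tested did not pass; the 9 had a median of 0.18, which was -0.15 without the 3 libraries of second label 20.

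S1pr1 and S1pr5, receptors for the lipid sphingosine-1-phosphate, rose as well. S1pr1 was at 6.66, 9.87, 13.5, 11.1 and 8.31 CPM in WT and at 17.3, 17.4 and 25.1 CPM in KO, without overlap, a rise of 1.01 ± 0.19 (edgeR adjusted p = 0.0139). Its changes at the other times, all called, were 1.14 to 2.34. S1pr5 was at 0.128, 0.770, 0.508, 0.535 and 0.600 CPM in WT and at 4.33, 3.56 and 1.10 CPM in KO, a rise of 2.55 ± 0.56 (edgeR adjusted p = 0.0436). KO replicate 3 lay closest to WT, S1pr5 was called at no other time, and it passed in 5 of 11 alternative fits and 1 of 8 that left out a library. Neither receptor was called without the 3 libraries of second label 20 (edgeR adjusted p = 0.110 for S1pr1 and 0.409 for S1pr5), and S1pr1 lost its call without WT replicate 1 (edgeR adjusted p = 0.0539). Of the 8 lipid receptor genes tested, these 2 passed, and the median of the 8 was 0.03.

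Further coding genes with large rises had other known roles. Hhatl, related to the enzyme that acylates Hedgehog proteins, was at 10.8 to 26.1 CPM in WT and at 39.0, 38.5 and 54.3 CPM in KO, a rise of 1.38 ± 0.25 (edgeR adjusted p = 0.00875). Wdr86, a WD-repeat gene, went from 2.86 to 7.37 CPM in WT to 10.6, 17.3 and 21.7 CPM in KO, a rise of 1.59 ± 0.28 (edgeR adjusted p = 0.00715). Angpt2, a secreted ligand of the endothelial receptor TIE2, was at 9.39 to 17.3 CPM in WT and at 17.7, 31.1 and 32.0 CPM in KO, a rise of 1.10 ± 0.20 (edgeR adjusted p = 0.00857). KO replicate 1 lay just above the highest WT library in Angpt2, while the other KO libraries were well apart. Pacsin1, an adaptor of endocytosis, rose by 1.17 ± 0.26 (edgeR adjusted p = 0.0459), Zfp185, an actin-associated LIM protein, by 1.02 ± 0.17 (edgeR adjusted p = 0.00347) and Myo3b, a class III myosin, by 1.09 ± 0.23 (edgeR adjusted p = 0.0310). Without the 3 libraries of second label 20, Hhatl, Pacsin1 and Myo3b lost their calls (edgeR adjusted p = 0.0947, 0.0947 and 0.348), and Pacsin1 passed in 4 of 11 alternative fits and 3 of 8 that left out a library. KO levels of Pacsin1, Zfp185 and Myo3b were 18.9 to 35.6 CPM, 59.2 to 108 CPM and 10.9 to 18.9 CPM, all above the WT libraries. A rise here means KO above WT, not an increase over the day. Mean WT Hhatl was 16.9 CPM at ZT16, 41.55 to 49.5 CPM at ZT0 to ZT12 and 21.2 CPM at ZT20. Mean KO Hhatl was 43.9 CPM at ZT16 and 43.3 to 71.2 CPM at the other times. For Myo3b, the WT mean was 6.93 CPM at ZT16 and 9.82 to 16.5 CPM at the other times. The KO mean was 14.7 CPM and 13.7 to 17.9 CPM.

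The remaining genes called higher lay outside the naming rule and were added after their values were seen. Qpct, the enzyme that forms pyroglutamate at the ends of secreted peptides, had 83.0 to 161.2 CPM in WT and 195.6 to 319 CPM in KO and rose by 0.98 ± 0.20 (edgeR adjusted p = 0.0207). Vps41, a subunit of a tethering complex of late endosomes, rose by 0.77 ± 0.14 (edgeR adjusted p = 0.0110), from 123 to 168.3 CPM in WT to 185.2 to 293 CPM in KO. Syt9, a calcium sensor of vesicle fusion, rose by 0.88 ± 0.19 (edgeR adjusted p = 0.0363), and Pkib, an inhibitor of protein kinase A, by 0.62 ± 0.13 (edgeR adjusted p = 0.0310). Tiparp, an ADP-ribosyltransferase induced by the aryl hydrocarbon receptor, rose by 0.96 ± 0.17 (edgeR adjusted p = 0.00561). Sptssa, a subunit of the first enzyme of sphingolipid synthesis, rose by 0.76 ± 0.16 (edgeR adjusted p = 0.0280). Arrdc4, an alpha-arrestin, rose by 0.72 ± 0.14 (edgeR adjusted p = 0.0139) and was the called gene whose groups overlapped, KO replicate 1 at 55.0 CPM lying within the WT range of 38.5 to 58.4 CPM. Pard6g, a cell polarity protein, and Cbx7, a Polycomb protein, rose by 0.60 ± 0.13 and 0.53 ± 0.12 (edgeR adjusted p = 0.0280 and 0.0430). The uncharacterised A930005H10Rik and 9130023H24Rik rose by 1.17 and 0.51. H2af-ps2, Rpl34-ps1 and BC021767 rose by 6.20, 4.25 and 1.79. The first 2 have names of pseudogenes, and H2af-ps2 and BC021767 are annotated as transcribed pseudogenes. Reads of these 3 genes may be shared with near-identical copies and are uncertain. Of these genes outside the rule, Tiparp, Vps41, Arrdc4 and A930005H10Rik were called without the 3 libraries of second label 20 and the others were not, with edgeR adjusted p from 0.0684 for BC021767 to 0.322 for 9130023H24Rik.

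**Figure D4:**
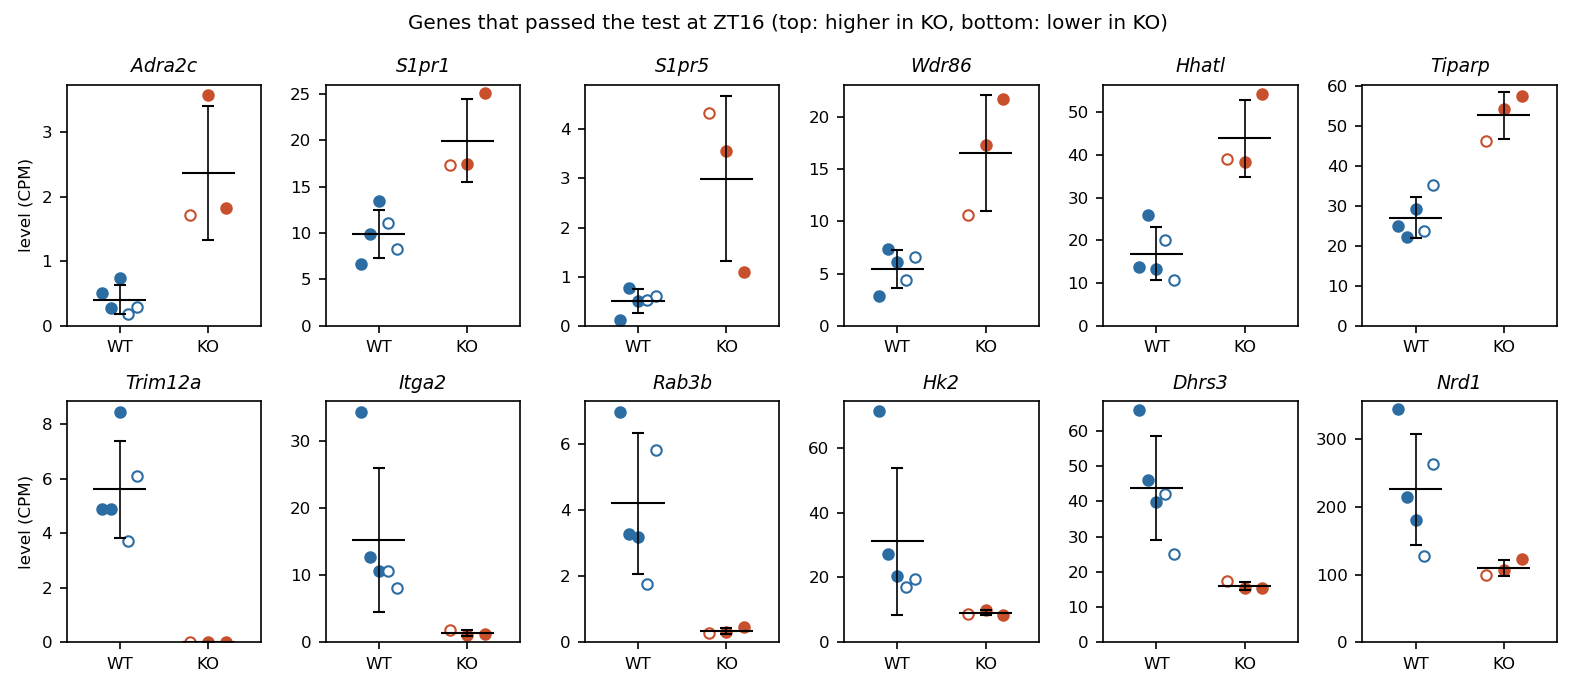
Levels in CPM of called genes in each library at ZT16, WT beside KO, with bars for the mean ± SD (n = 5 WT and 3 KO) and open circles for the 3 libraries whose second label gives 20. KO libraries lie apart from WT in each of the genes shown, and WT replicate 1 gives the highest point in Itga2, at 34.3 CPM, and in Hk2, at 71.2 CPM.

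Itga2, Rab3b and Hk2 were among the 9 genes that fell. Itga2, the integrin subunit of a collagen receptor, was at 34.3, 12.7, 10.7, 10.6 and 8.16 CPM in WT and at 1.87, 1.05 and 1.31 CPM in KO, a fall of 3.43 ± 0.58 on the log2 scale (edgeR adjusted p = 0.00460). Rab3b, a GTPase of secretory vesicles, was at 6.98, 3.29, 3.20, 1.76 and 5.82 CPM in WT and at 0.288, 0.307 and 0.465 CPM in KO, a fall of 3.57 ± 0.64 (edgeR adjusted p = 0.00750). Hk2, the hexokinase that starts glycolysis, was at 71.2, 27.1, 20.5, 17.2 and 19.7 CPM in WT and at 8.74, 10.0 and 8.54 CPM in KO, a fall of 1.78 ± 0.37 (edgeR adjusted p = 0.0310). The groups were apart in each of the 3 genes. None of them was called at another time: the Itga2 change was -0.07 at ZT20 and -2.31 at ZT8, that of Rab3b 0.22 at ZT0 and -3.21 at ZT12, and that of Hk2 between -0.79 and -0.25. The difference between ZT16 and the other times passed for none of the 3. A fall here means KO below WT, not a decrease over the day. Mean WT levels at ZT16 were 15.3 CPM (Itga2), 4.21 CPM (Rab3b) and 31.15 CPM (Hk2). At the other times they were 2.00 to 7.40, 0.702 to 2.08 and 8.81 to 15.5 CPM. Mean KO levels at ZT16 were 1.41, 0.353 and 9.09 CPM. At the other times these were 0.816 to 1.91, 0.224 to 1.14 and 6.21 to 8.95 CPM.

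WT replicate 1 was the highest WT library in all 3 genes. Without it, the change was -2.90 for Itga2 and -3.32 for Rab3b, both still called (edgeR adjusted p = 0.0155 and 0.0248), while Hk2 gave -1.22 and was not called (edgeR adjusted p = 0.0727). Without the 3 libraries of second label 20, Itga2 was called (edgeR adjusted p = 0.0213) and Rab3b and Hk2 were not (edgeR adjusted p = 0.0947 and 0.0642), and Rab3b lost its call without any 1 of the KO libraries. Dhrs3, a reductase of retinaldehyde, was at 25.1 to 65.9 CPM in WT and at 15.5 to 17.4 CPM in KO and fell by 1.44 ± 0.29 (edgeR adjusted p = 0.0240). Nrd1, the metalloprotease nardilysin, was at 127.7 to 344.6 CPM in WT and at 100.3 to 123.9 CPM in KO and fell by 1.04 ± 0.20 (edgeR adjusted p = 0.0166). Rai14, an actin-binding ankyrin repeat protein, fell by 0.69 ± 0.14 (edgeR adjusted p = 0.0166). Mean WT levels of Dhrs3, Nrd1 and Rai14 at ZT16 were 43.8, 226.3 and 24.0 CPM. At the other times they were 18.0 to 25.0, 105.5 to 158.5 and 14.8 to 18.9 CPM. Mean KO levels at ZT16 were 16.1, 110.4 and 14.8 CPM. At the other times these were 15.15 to 21.15, 95.0 to 118.8 and 13.0 to 15.3 CPM. Dhrs3, Nrd1 and Rai14 also lost their calls without WT replicate 1 (edgeR adjusted p = 0.0727, 0.0539 and 0.0539). Zcchc12, a zinc finger transcriptional co-activator, fell from 3.33 to 6.89 CPM in WT to 1.26 to 3.09 CPM in KO, by 1.34 ± 0.27 (edgeR adjusted p = 0.0166), and was called without that library (edgeR adjusted p = 0.0379) but not without the 3 libraries of second label 20 (edgeR adjusted p = 0.110). Zcchc12 also lost its call without KO replicate 1, KO replicate 2 or WT replicate 3, and without WT replicates 3 and 4.

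Trim12a, a gene of the TRIM ubiquitin ligase family, had no count in any KO library. WT levels were 4.91, 4.88, 8.43, 3.72 and 6.09 CPM. A floor of 3 fragments over the KO group, with counts divided by 2 as if both mates were counted, equals 0.0355 CPM. Against it, the WT level of 5.70 CPM makes KO at least 160.4-fold lower (edgeR adjusted p = 6.72e-08). Trim12a was also called lower at every other time. Trim5, a neighbour, was at 0.470 to 1.98 CPM in WT and at 0.101 to 0.190 CPM in KO (edgeR adjusted p = 0.0416), and was not called without the 3 libraries of second label 20 (edgeR adjusted p = 0.380). Both lie in a block of TRIM genes on chromosome 7 (104263386 to 104315558 for Trim5 and Trim12a), the chromosome of Arntl. In that block Trim34a (-0.68, edgeR adjusted p = 0.0982), Trim34b (1.62, edgeR adjusted p = 0.0687) and Trim30d (-3.47, edgeR adjusted p = 0.174) differed without a call in edgeR, and DESeq2 called all 3 (adjusted p = 0.0159, 0.00469 and 0.00823). These genes have near-identical relatives, so the split of reads among them is uncertain. Of the 34 called genes, 5 lie on chromosome 7 (14.7%), against 7.43% of genes tested. Both groups carried the loxP alleles of Arntl, and only KO carried the Cre transgene, which came from another strain. Loss of Bmal1 and the transgene with its strain background cannot be told apart here, and neither was tested.

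**Figure D5:**
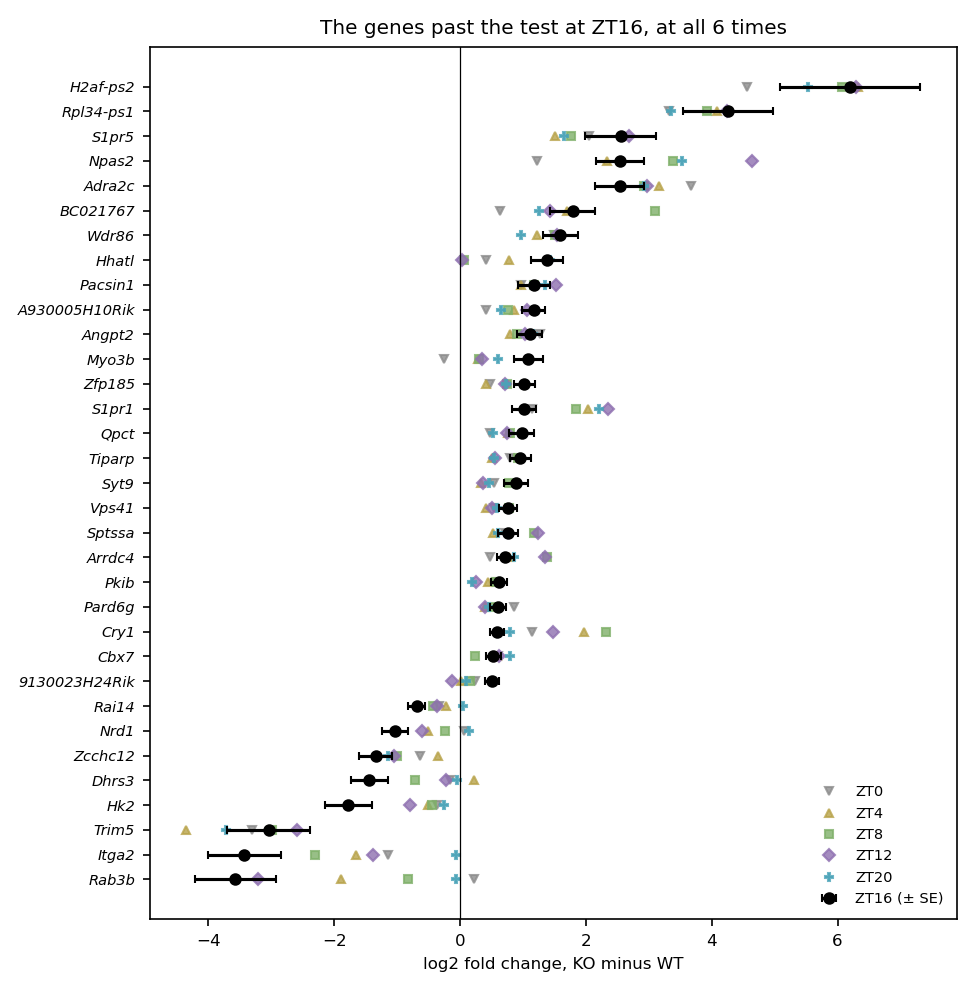
Log2 fold change, KO minus WT, on the horizontal axis for each called gene other than Trim12a, 1 gene a row; black circles with bars are ZT16 ± SE and the coloured symbols are the other 5 times. Of the 34 called genes 28 keep their direction at all times, a count given without its share over all genes. Adra2c is among them (2.54 at ZT16 and 2.92 to 3.68 elsewhere), while Rab3b and Itga2 are near 0 at ZT20 (-0.06 and -0.07).

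Over all gene lists, 5 of 578 genes tested rose (Npas2, Cry1, Adra2c, S1pr1 and S1pr5) and 2 fell (Rab3b and Hk2), beside 34 of 18661 (0.182%) over all genes, and the median was -0.20. The lists were chosen with earlier results of these data known, so this share is a description. None of the 23 parathyroid identity genes passed, with a median of 0.08 and 16 positive. Mean Pth in WT was 131500 ± 54870 CPM (SD, n = 5), that in KO was 106500 ± 12820 CPM (SD, n = 3), and the groups overlapped with a difference of -0.31 ± 0.28 (edgeR adjusted p = 0.825), which was -0.02 without WT replicate 1 and -0.64 without the 3 libraries of second label 20. Casr differed by 0.28 ± 0.14 (edgeR adjusted p = 0.656) and Gcm2, the transcription factor that specifies the gland, by 0.06 ± 0.15 (edgeR adjusted p = 0.953). Vdr, the vitamin D receptor, differed by 0.41 ± 0.18 (edgeR adjusted p = 0.592), and Pax1, a transcription factor of the pharyngeal pouches, was at 3.86 to 13.9 CPM in WT and 17.8 to 24.7 CPM in KO, without overlap and without a call (edgeR adjusted p = 0.461). No gene passed among 20 of calcium signalling (median -0.15), 6 of Pth mRNA binding (0.02) or 15 of granins and prohormone processing (-0.13). Among 25 exocytosis genes, with a median of -0.03, Rab3b alone passed. Syt9, called higher and given above, was not on this list. Sytl4, a Rab27 effector on secretory granules, was at 336.1 to 547 CPM in WT and 602.8 to 1054 CPM in KO (edgeR adjusted p = 0.131).

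Lists of clock output and stress response held no called gene, and their medians were negative except for the cold-inducible genes. Of 21 clock output genes, 17 were negative, with a median of -0.22; Klf11, a Kruppel-like repressor, had 8.59 to 13.6 CPM in WT and 6.67 to 7.32 CPM in KO (edgeR adjusted p = 0.205). The 17 glucocorticoid response genes had a median of -0.45, and Zbtb16, a zinc finger repressor induced by glucocorticoids, was at 73.5, 52.3, 37.0, 18.8 and 11.7 CPM in WT and at 8.85, 9.46 and 12.4 CPM in KO. Zbtb16 overlapped, and its -1.92 ± 0.53 did not pass (edgeR adjusted p = 0.184); DESeq2 called it (adjusted p = 0.0167). The 19 immediate early genes had a median of -0.54, and the AP-1 subunit Fosl2 was at 80.6 CPM in WT replicate 1, at 11.5 to 18.3 CPM in the other WT libraries and at 9.44 to 11.5 CPM in KO. Without WT replicate 1, the medians were -0.29 for glucocorticoid response and -0.53 for immediate early genes; the latter was -0.25 without the 3 libraries of second label 20 and also -0.25 without WT replicates 3 and 4. Clock output had a median of -0.36 without the 3 libraries. Heat shock (15 genes, median -0.20) and cold-inducible genes (2 genes, 0.21) held no call.

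In metabolism, the 18 glycolysis genes had a median of -0.02 and Hk2 as the gene called. Of 39 oxidative phosphorylation genes, 37 were negative with a median of -0.14, none called; the median was -0.05 without WT replicate 1, -0.26 without the 3 libraries of second label 20 and -0.24 without WT replicates 3 and 4. Endoplasmic reticulum folding genes (30, 25 negative) had a median of -0.21. This median was -0.09 without WT replicate 1, -0.21 without the 3 libraries of second label 20 and -0.25 without WT replicates 3 and 4. Lipid synthesis (18 genes, median 0.15) and fatty acid oxidation (15 genes, -0.10) held no called gene. Ucp2, a mitochondrial carrier, was at 95.9 to 158.6 CPM in WT and 63.7 to 84.4 CPM in KO, -0.85 ± 0.20 (edgeR adjusted p = 0.0729). Its groups did not overlap, and DESeq2 called it (adjusted p = 0.00596).

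All 31 proliferation genes were negative, with a median of -1.22, and none passed. Ccna2, a cyclin of DNA replication, was at 14.1 and 30.0 CPM in WT replicates 3 and 4, at 2.37 to 4.55 CPM in the other WT libraries and at 2.01 to 6.53 CPM in KO. Without WT replicates 3 and 4, 5 of 31 were negative and the median was 0.13. The 17 lymphoid markers were also all negative, with a median of -2.46, and 1 was negative, with a median of 2.38, without those 2 libraries. Those were the lymphoid-rich libraries, so the rise of the lymphoid median follows from leaving them out. With thyroid, lymphoid, muscle and fat scores as covariates, 29 of 31 proliferation genes were negative, with a median of -0.55. A link between proliferation genes and lymphoid content was not tested. No gene passed among 27 cell cycle regulators (median -0.26), 24 collagen and matrix genes (-0.53), 20 interferon genes (-0.37) or 30 ribosomal protein genes (-0.13). Without WT replicates 3 and 4, these medians were -0.009, -0.22, 0.08 and -0.18, so that of the interferon genes turned positive.

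Markers of other tissue varied from library to library and were not called in any list. The mean log2(CPM + 0.1) of the lymphoid list ran from -2.01 to 4.85 in WT and from -1.39 to 1.50 in KO, and that of the thyroid list from -1.09 to 4.86 in WT and from -2.13 to 3.84 in KO. Summed thyroid markers were 182.4 to 34220 CPM in WT and 8.91 to 23960 CPM in KO, and summed lymphoid markers 9.31 to 1721 CPM and 16.9 to 138.6 CPM. Two-sided exact permutation tests of the 12 scores gave p of 0.161 (airway) or more, and 0.818 or more after adjustment, where 3 against 5 libraries can give no less than 0.0179. Medians of single genes were -0.30 for thyroid (13 tested), -0.63 for C cells (5), -0.26 for muscle (15), -0.34 for fat (12), 0.29 for blood (6), -0.47 for macrophages (11), -0.58 for endothelium (12), -0.37 for fibroblasts (11), -0.03 for nerve (10) and 0.86 for airway (9). Directions of some of these lists changed when libraries were left out. Others kept theirs: the endothelium median was -0.74 without WT replicate 1, -0.81 without the 3 libraries of second label 20 and -0.28 without WT replicates 3 and 4. The thyroid median was 1.12 without the 3 libraries of second label 20 and 1.86 without WT replicates 3 and 4, with 0 of 13 negative in both, and without the latter pair that of macrophages was 0.06 and that of nerve 0.14. The blood median was -0.21 without the 3 libraries and the fat median 0.03 without WT replicate 1. With thyroid, lymphoid, muscle and fat scores as covariates, 66 genes were called, 40 higher and 26 lower. The part of tissue content in the 34 calls was not tested.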

How the data were processed

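Per the labels' protocols, glands of 2 male mice were pooled per sample, total RNA was extracted and libraries were made with a stranded total RNA kit. The authors deposited raw read counts per gene and sample. Tools listed in the submitters' processing notes, with no role stated, are featureCounts 2.0.1, STAR 2.7.8a and DESeq2 1.30.1, and the build is mm10. Annotation and strand setting: not given in the sources used here. Overlapping genes on opposite strands may share reads. Of counts from 1 to 10, 87.4% to 92.5% were even, as when both mates are counted, so depth in fragments may be near the counts divided by 2. Of 27179 gene IDs, 25275 with 98.0% of counts matched the GRCm38.p6 gene table, used for symbols and coordinates.

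Counts were tested with edgeR 4.0.16 (R 4.3.3; TMM, filterByExpr by group, robust quasi-likelihood fit) on 12 groups of genotype and time, with Benjamini-Hochberg adjustment over 18661 genes and a threshold of 0.05. The effect at ZT16 minus the mean effect of the other 5 times was tested in the same fit. The p-values of edgeR rest on the spread between pools within the 12 groups over all 39 samples, not on the 8 libraries at ZT16 alone. Marker scores were compared by exact permutation. Members, lists and tests were chosen with earlier results of these data known. Named genes were Arntl, the clock genes, the 10 largest rises and falls among called coding genes with a proper symbol (which leaves out Rpl34-ps1), a mean of at least 1 CPM and no overlap, the 4 lowest p-values of each remaining list, and the genes past the interaction test. Some single-gene results are not reported here. Replicates differed by a chi-square of 43.8 to 186.1 per gene, so none were copies. The scripts were tested on simulated counts. Alternatives were DESeq2 1.42.0, its size factors, other filters, other treatment of the 3 doubtful times, a replicate block, tissue scores and leaving out each library; leaving out WT replicates 3 and 4 together was added after seeing the data.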

Additional observations from a re-analysis of the deposited data

Results flagged for a closer look

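In 97 genes or markers checked, the 5 WT libraries held 14 values far from the rest by Dixon's criterion on untransformed CPM. WT replicate 1 accounted for 9 of them, all high: Pth (227000 CPM), Nr1d2 (171 CPM), Dbp (24.8 CPM), Itga2 (34.3 CPM), Hk2 (71.2 CPM), Fosl2 (80.6 CPM) and the respiratory chain genes Cox7c (174 CPM), Ndufa1 (116 CPM) and Uqcrq (80.0 CPM). WT replicate 2 was high in Vdr (800 CPM) and Bpifa1 (7.87 CPM), WT replicate 4 in H2af-ps2 (0.649 CPM), and WT replicate 5 was high in BC021767 (1.28 CPM) and low in Bhlhe40 (6.38 CPM). Cry1 (-0.952) is listed because its log2 effect at ZT16 differed from the mean of the other 5 times in edgeR's interaction test.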

How the results depend on the processing

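All 34 called genes kept their sign under every alternative in which they were tested, and Trim12a was called under all 11 alternatives and all 8 leave-outs. Npas2 and Adra2c missed only in the fit of the 8 libraries alone. Against 34 calls (25 higher, 9 lower), DESeq2 gave 109 (59 and 50), with 15 list genes and 6 genes in the interaction. The 8 libraries alone gave 3 calls (2 and 1), 0 of them clock or list genes: Rpl34-ps1 and H2af-ps2, whose reads are uncertain, and Trim12a. Without the 3 libraries of second label 20 there were 15 calls (9 higher), with 1 clock and 2 list genes; counted as ZT20, there were 6 (4 and 2), with 1 clock gene, 2 list genes and 1 gene in the interaction. The 4 tissue scores gave 66 (40 and 26). Without WT replicates 3 and 4 there were 33, 16 of them among the 34, with 15 lower and 1 clock gene. Arntl became called with DESeq2 (-0.992). The replicate block left 25 calls, 16 of them higher, with 1 clock and 4 list genes; same-numbered libraries correlated at -0.262 to 0.024 over 13785 genes, and KO replicate 1 correlated best with WT replicate 4 (0.465), so the numbers were not taken as pairs.

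Leaving out 1 library at a time gave 4 (without KO replicate 3) to 52 calls (without WT replicate 2), 2 to 38 higher and 1 to 16 lower, with 1 to 3 clock genes, 2 to 8 list genes, 0 to 2 marker scores past 0.05, and Arntl at -1.2 to -0.781. Signs turned in uncalled genes: Per2 (-0.003 with the block, -0.062 without WT replicates 3 and 4, -0.004 to 0.16 leaving out 1), Nr1d1 (-0.051 without the 3 libraries, -0.04 with them as ZT20, -0.099 with the block, -0.259 to 0.177 leaving out 1), Nr1d2 (-0.439 to 0.223), Rorb (-0.765 to 0.105), Ccna2 (0.055 without WT replicates 3 and 4) and Gcm2 (-0.163 there, -0.051 to 0.154 leaving out 1). The causes were not tested. With 3 against 5 pools, small changes may go uncalled.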
